A study of Mus musculus with 2 samples.

Results

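The clustered histone genes were followed across the cells of the embryonic mouse cerebral cortex. The set was taken from the gene list of the count matrices by name, as every gene whose symbol starts with Hist1h, Hist2h, Hist3h or Hist4h. It held 67 of the 32285 genes listed. These are 6 H1 linker histone genes, 18 H2A, 18 H2B, 12 H3 and 13 H4 genes. They lie in the Hist1 cluster on chromosome 13 (54 genes), the Hist2 cluster on chromosome 3 (10 genes), the Hist3 pair on chromosome 11 (2 genes) and the Hist4 gene on chromosome 6 (1 gene). These are the genes usually called replication-dependent histone genes.

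Most histone protein is made in S phase, when the cell doubles its chromatin. H2A, H2B, H3 and H4 form the nucleosome core, around which DNA is wound, and H1 binds the linker DNA between nucleosomes. The mRNAs of most of these genes end, unlike other mRNAs, in a short stem-loop in place of a poly(A) tail. The stem-loop is bound by SLBP and lets the mRNA accumulate during DNA synthesis and decay when synthesis ends. Some of the genes can also make a longer, polyadenylated transcript that runs past the stem-loop, which is known from cells that have left the cycle. In the developing cortex the cycling cells are radial glial cells (RGCs), the neural stem cells of the ventricular zone, and the intermediate progenitor cells (IPCs) they give rise to. Projection neurons and the cortical interneurons (cINs) that migrate in from the ganglionic eminences no longer divide.

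The data came from 2 single-cell RNA-seq libraries of the dorsal telencephalon of mouse embryos at E14.5, here called replicates 1 and 3 after their labels. Both are wild type (WT) and had no treatment, on a C57BL/6J background. The sample titles also name EoMltt3. The tissue was dissociated with papain and the libraries were made with the 10x Genomics 3' v3.1 kit, which primes on poly(A) and counts unique molecular identifiers (UMIs). For these genes a UMI therefore counts a captured, poly(A)-primed molecule, and its relation to the amount of histone mRNA in the cell was not tested. There is 1 genotype and no treatment, so the comparisons below are between cell types and between cell cycle phases within it, with the library as the replicate. The p-values measure only the spread between these 2 libraries.

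The stem-loops of 6 of the genes are shown because the kit primes on poly(A), and what the annotation holds past the loop tells a stem-loop end from a longer transcript. The sequences were read from GENCODE vM39 transcripts, 5' to 3', with the stem and loop in capitals.

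Hist1h2ap: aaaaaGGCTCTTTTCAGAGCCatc

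Hist1h2ae: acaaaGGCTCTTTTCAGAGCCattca

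Hist1h1e: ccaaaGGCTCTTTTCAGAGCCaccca

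Hist1h2bc: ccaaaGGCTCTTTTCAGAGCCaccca

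Hist3h2ba: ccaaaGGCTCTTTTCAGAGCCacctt

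Hist3h2a: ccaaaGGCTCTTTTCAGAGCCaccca

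The loop itself was identical in all 6. The annotated transcript of *Hist1h2ap* ended 3 bases past the loop, as a stem-loop mRNA does. Those of *Hist1h2ae*, *Hist3h2ba*, *Hist1h2bc*, *Hist1h1e* and *Hist3h2a* ran on for 151, 169 to 171, 373, 1153 and 1643 bases. Over the whole set, 45 of the 67 genes had a stem-loop match in an annotated transcript, of which 24 had a transcript with more than 100 bases past it and 3 had no more than 20. *Hist1h1b* and *Hist1h1a* had no match, which says only that these letters were not in the annotated transcript.

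Replicate 1 held 6163 cell barcodes with a median of 9802 UMIs, and replicate 3 held 8870 with 9754. The 67 genes took 73460 of 64182006 UMIs in replicate 1 (1145 CPM) and 98868 of 93295807 in replicate 3 (1060 CPM). All levels below are in CPM, UMIs scaled to the total of the cells summed. After filters on depth, mitochondrial share and predicted doublets, 5149 and 6854 cells were kept in 25 clusters. Clusters were made without the histone genes and named from marker genes. The histone genes were not left out of the doublet scores or of the leading genes checked in naming. The RGC-like class held 742 and 1690 cells, the IPC-like class 492 and 868, the projection neuron-like class 2877 and 3480 and the medial ganglionic eminence (MGE) interneuron-like class 335 and 218. In the RGC-like cells 12 of 12 RGC markers were detected and in the MGE interneuron-like cells 10 of 10 of theirs. The caudal ganglionic eminence (CGE) interneuron-like class held 446 cells in replicate 1 and 29 in replicate 3. The microglia-like cells, 15 in all, came from replicate 3 alone. The libraries shared 23 cell barcodes. Replicate 1 and replicate 3 were not copies of one library (chi-square of 80.2 per gene over 21040 genes).

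The captured molecules were spread very unevenly over the set. Over all barcodes, 55 of the 67 genes had at least 100 UMIs and 16 had at least 1000. *Hist1h2ba* and *Hist1h2aa*, the testis-specific H2B and H2A genes, had none, which allows up to 3 UMIs each by counting error. *Hist1h2bq* and *Hist2h2aa2* had 1 UMI each and *Hist1h1t*, the testis-specific H1, had 6. In the kept cells, the 12 genes with the most UMIs held 88.6% of all histone UMIs, and the top 3 held 59.3%. These were *Hist3h2ba* with 45776 UMIs (30.5%), *Hist1h2ap* with 22243 (14.8%) and *Hist1h2ae* with 21039 (14.0%). Next came *Hist3h2a* with 12298, *Hist1h1b* with 8994, *Hist1h1e* with 5300, *Hist1h2bc* with 4835, *Hist1h4i* with 3733, *Hist1h4d* with 3064, *Hist1h1c* with 2296, *Hist1h3c* with 1920 and *Hist1h1a* with 1638. Divided by the length of the annotated gene, the counts were 99082 UMIs per kb for *Hist3h2ba*, 49210 for *Hist1h2ap*, 37704 for *Hist1h2ae*, 24209 for *Hist3h2a* and 11327 for *Hist1h1b*. A 3' library reads the end of each molecule, so these ratios are not read as levels.

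The names of closely similar genes need care. In 29 of the 67 genes, more than 50% of the 90-base windows of the transcript also occurred in a transcript of another gene, and in 6 genes none did. For *Hist1h2ap* 92.4% of windows were shared with other genes, mostly H2A genes, so its counts are uncertain as counts of that one gene. The share was 31.9% for *Hist1h2ae*, 27.9% for *Hist1h1e*, 37.2% for *Hist1h2bc*, 17.4% for *Hist1h4i*, 8.57% for *Hist3h2ba* and 70.2% for *Hist3h2a*. Where a gene had several transcripts, the highest share is given. Of the last 300 windows, the end that a 3' library reads, all were shared for *Hist1h2ap* and *Hist1h1e* and 34.7% for *Hist1h2ae*. None of them was shared for *Hist1h2bc*, *Hist1h4i*, *Hist3h2ba* or *Hist3h2a*.

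Across the classes with cells in both libraries, the mean summed level of the set was highest in the cycling progenitors. In RGC-like cells it was 2717 CPM in replicate 1 and 1769 in replicate 3. In IPC-like cells it was 1471 and 1049. Projection neuron-like cells had 723 and 837 (780 ± 80.6, SD, n = 2) and MGE interneuron-like cells 609 and 554 (581 ± 38.6). RGC-like and IPC-like cells were above projection neuron-like cells in both libraries, and replicate 1 was the higher library in both progenitor classes. CGE interneuron-like cells had 1213 and 336 CPM, where replicate 3 rests on the 29 cells. The leading genes of this class include *Adarb2* but also *Ebf1*, a marker listed for the lateral ganglionic eminence or striatum. Whether the class holds other cells was not tested. Cajal-Retzius-like cells had 518 and 555 CPM, meningeal-like 469 and 524, pericyte-like 817 and 730 and endothelial-like 766 and 504. Red blood cell-like cells had 183 and 264 CPM, the lowest of these values. In replicate 3 their median cell had 1 histone UMI and the highest had 31. Whether these UMIs were free RNA or the cells' own was not tested. The 15 microglia-like cells of replicate 3 had 1296 CPM. On this scale a change in histone mRNA and an opposite change in all other RNA cannot be told apart.

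RGC-like and IPC-like cells were then split into G1, S and G2M by published phase lists, of which 39 S genes and 53 G2M genes were scored and none is a histone gene of this set. G1 here means that neither score was above 0, which includes resting cells. G2M means that the G2M score was above 0 and above the S score, which could itself be above 0. RGC-like cells were 18.6% and 17.2% G1, 40.4% and 43.9% S and 41.0% and 38.9% G2M, and IPC-like cells were 64.5% G1 in both libraries. The phases are ranges of a score and not cell types. In RGC-like cells 114 of 720 and 306 of 1650 cells changed phase when a score was moved by 0.05, and in IPC-like cells 131 of 488 and 250 of 833.

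In RGC-like cells the summed level was 469 and 418 CPM in G1 (443 ± 36.4, SD, n = 2), 2226 and 1444 in S (1835 ± 553) and 3839 and 2488 in G2M (3164 ± 955). In IPC-like cells the values were 471 and 513 in G1 (492 ± 29.7), 2415 and 1118 in S (1767 ± 917) and 3410 and 2621 in G2M (3015 ± 558). G1 was lowest and G2M highest in each library, and the values of the 3 phases did not overlap in either class. The S values of both classes were spread widely between the libraries. Both G1 values of RGC-like cells were below both projection neuron-like values. The median depth rose with phase, from 10656 and 10077 UMIs per RGC-like cell in G1 to 12843 and 11941 in S and 15393 and 13496 in G2M.

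**Figure D1:**
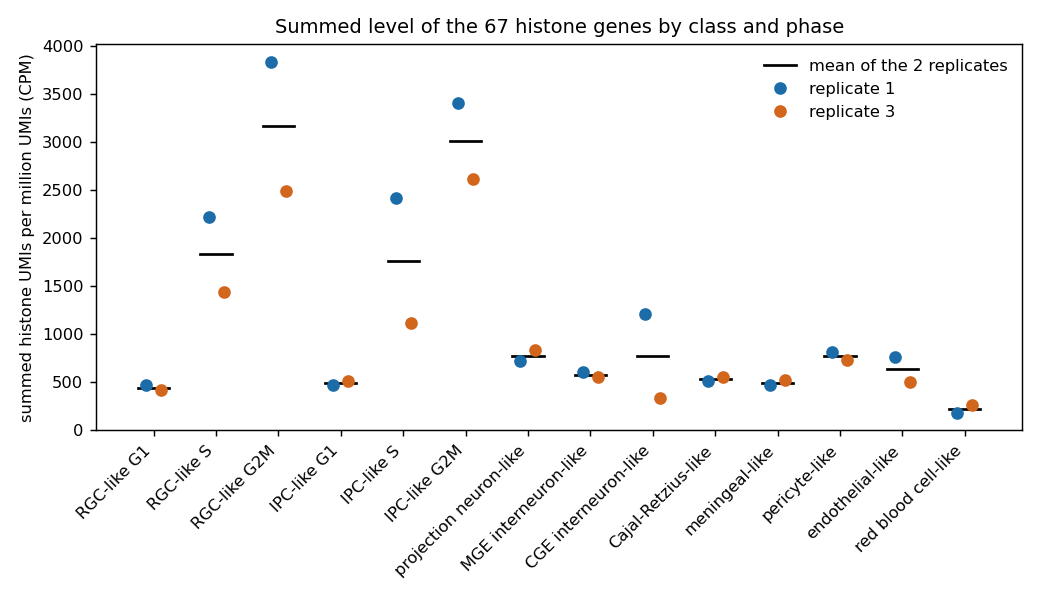
Summed level of the 67 clustered histone genes in CPM in each cell class and, for RGC-like and IPC-like cells, in each phase, with 1 point per library (replicates 1 and 3) and a bar at their mean. S and G2M progenitors sit between 1118 and 3839 CPM, while projection neuron-like cells sit at 723 and 837 and red blood cell-like cells at 183 and 264.

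With every cell thinned to 3000 UMIs, a histone UMI was found in 72.4% of G1 RGC-like cells in replicate 1 (Wilson 95% interval 64.3 to 79.3) and 72.1% in replicate 3 (66.6 to 77.0), in 79.0% and 79.7% of S cells and in 93.2% and 91.4% of G2M cells. In projection neuron-like cells it was 84.0% (82.6 to 85.3) and 86.6% (85.4 to 87.7), and in MGE interneuron-like cells 74.2% and 68.8%. In red blood cell-like cells the share was 40.4% (27.6 to 54.7) and 42.6% (31.0 to 55.1). All the other shares were above these. The projection neuron-like share was above that of S RGC-like cells, against the order of the CPM values, so no order is read from these shares. Thinning left out 22 and 40 RGC-like, 75 and 156 projection neuron-like, 68 and 61 MGE interneuron-like and 9 and 34 red blood cell-like cells that were too shallow. Before thinning the shares were 97.8% and 97.0% in RGC-like cells, 96.5% and 95.4% in projection neuron-like cells, 81.8% and 74.3% in MGE interneuron-like cells and 57.1% and 56.8% in red blood cell-like cells, at median depths of 12572 and 11766, 11073 and 10524, 4528 and 4038, and 5304 and 4541 UMIs. These intervals cover counting error only.

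The mean number of histone UMIs among 3000 was 1.57 and 1.37 in G1 RGC-like cells, 5.77 and 3.78 in S, 10.1 and 6.92 in G2M, 2.21 and 2.54 in projection neuron-like cells and 0.596 and 0.82 in red blood cell-like cells. S cells were the most unequal, since the 10% of S RGC-like cells with the most held 46.3% and 49.2% of their histone UMIs, against 30.3% and 26.8% in G1 and 31.6% in G2M in both libraries.

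The unequal S cells were resolved by placing each cell on the angle between its S and G2M scores, in 8 bins of 45 degrees. In bins 1 to 4 the summed histone level of RGC-like cells lay between 402 and 487 CPM. It was 457 and 428 CPM in bin 4, where the S score was above 0 and the G2M score still below it, beside 428 and 461 in bin 1. In bin 5, where both scores were above 0 and S was the larger, it was 4063 and 2511 CPM. It was highest in bin 6, where G2M was the larger, at 4595 and 2930, and was 1869 and 1322 in bin 7. In bin 8, with only 9 and 24 cells, it was 571 and 650. The step between bins 4 and 5 was seen in both libraries, with 114 and 293 cells before it and 129 and 317 after it. No test was made over the bins.

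Bin 4 is set by an S score above 0, so its high S-list level follows from how it was built. The histone levels there lay within the range of bins 1 to 3. The summed level of the S-list genes in RGC-like cells went from 1912 and 1806 CPM in bin 3 to 4469 and 4352 in bin 4, 6457 and 6498 in bin 5 and 3123 and 3079 in bin 6. The G2M-list genes went from 3003 and 2844 CPM in bin 4 to 7358 and 7040 in bin 5 and 18119 and 18187 in bin 6. The 2 libraries gave near-equal list levels in these bins, whereas the histone levels of replicate 1 were the higher ones in bins 5 to 7. Since the bins are built from the scores of these lists, the list levels only mark the position along the cycle.

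At equal depth, the median RGC-like cell in bin 4 had 1 histone UMI of 3000 in both libraries. In bin 5 it had 9 and 3, in bin 6 it had 10.5 and 7, and in bin 7 it had 2 in both. None of 114 and none of 293 cells in bin 4 had 10 or more, which allows shares of up to 2.63% and 1.02%. In bin 5 it was 64 of 129 cells (49.6%) and 90 of 317 (28.4%), in bin 6 it was 106 of 200 (53%) and 174 of 448 (38.8%), and in bin 7 it was 14 of 86 (16.3%) and 16 of 170 (9.41%).

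In IPC-like cells, with fewer cells, the summed level was 327 and 346 CPM in bin 4 (23 and 45 cells), 4537 and 2687 in bin 5 (32 and 40 cells), 4446 and 3215 in bin 6 and 795 and 907 in bin 7. The share of cells with 10 or more of 3000 UMIs was 62.5% and 35.0% in bin 5 and 53.8% and 38.5% in bin 6.

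**Figure D2:**
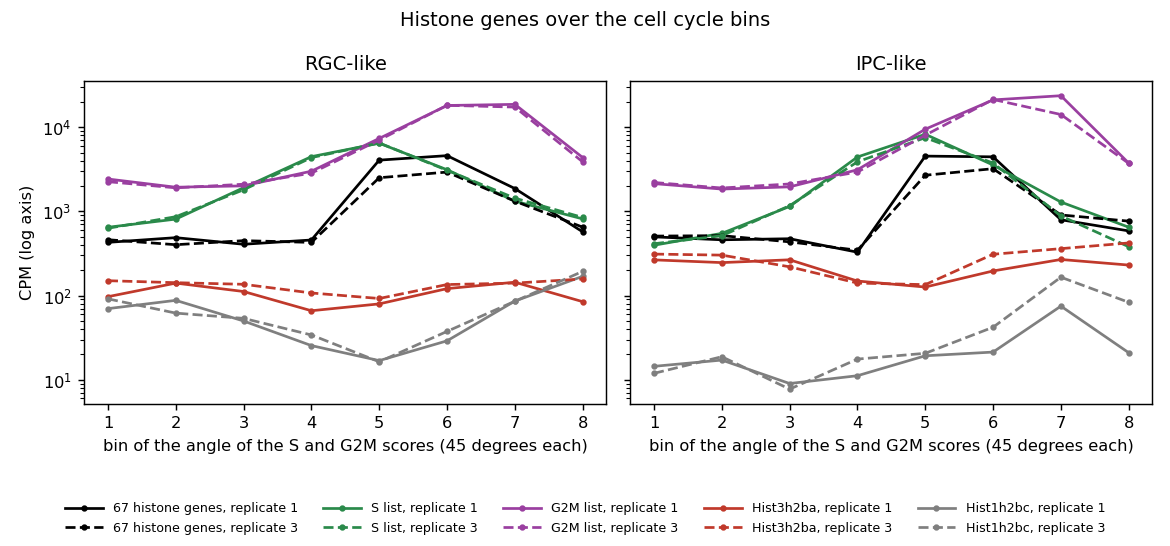
Level in CPM on a log axis over the 8 bins of the angle of the S and G2M scores, in RGC-like and IPC-like cells, for the 67 histone genes summed, the S and G2M lists, *Hist3h2ba* and *Hist1h2bc*, with 1 line per library. In RGC-like cells the histone sum is at 457 and 428 CPM in bin 4 and at 4063 and 2511 in bin 5. The S list, whose score helps to set the bins, is at 4469 and 4352 in bin 4.

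*Hist1h2ap*, an H2A gene, went in RGC-like cells from 69.4 and 33.1 CPM in bin 4 to 1426 and 648 in bin 5 and 1462 and 665 in bin 6, and was still at 453 and 208 in bin 7. *Hist1h2ae*, another H2A gene, went from 48.8 and 32.2 to 1063 and 595 and then 1126 and 719. *Hist1h1b*, which encodes a linker histone of dividing cells, went from 36.4 and 20.5 to 461 and 369 and then 470 and 369. In these 3 genes every value of bin 5 was above every value of bin 4. Here and below, the share of all genes whose values separated between groups was not computed. Such statements only describe the values of the genes named. *Hist3h2ba* showed no such step and ranged from 66.0 to 144 CPM in replicate 1 and from 92.2 to 157 in replicate 3. *Hist1h2bc* ran the other way, with its lowest level in bin 5 at 16.9 and 16.3 CPM and its highest in bin 8 at 169 and 194. The values of bin 8 rest on 9 and 24 cells.

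The phases were compared with edgeR's quasi-likelihood test on UMIs summed per class, phase and library, across all genes outside the phase lists. Of the 67 genes, 53 passed the filter on low counts in this fit. Between S and G1 RGC-like cells, 18 of them were higher (7.49% of all genes tested were called higher) and 1 was lower (4.01% of all genes). The median log2 difference of the 53 was 1.67, beside -0.01 over all genes tested. The blocked fit, in which the sums of one library are compared with each other, called 31 higher and 2 lower, beside 12.2% and 8.47% of all genes.

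Of the H1 genes, 4 of 5 tested were higher in S. *Hist1h1b* went from 6.22 and 4.96 CPM in G1 to 241 and 188 in S and 379 and 296 in G2M, a log2 difference of S over G1 of 5.20 ± 0.40 (SE; adjusted p = 9.07e-06), the largest of the 53. *Hist1h1a*, also a linker histone of dividing cells, went from 0 and 1.77 to 41.5 and 35.1 and then 54.2 and 48.1 CPM (4.57 ± 0.55, adjusted p = 0.000253). *Hist1h1e* went from 19.4 and 11 to 105 and 76.4 and then 192 and 137 CPM (2.63 ± 0.36, adjusted p = 0.000579), and *Hist1h1d*, at a lower level, from 8.98 and 2.84 to 25.9 and 17.6 (1.93). In these 4 genes each S value was above both G1 values. *Hist1h1c*, a further linker histone, had 6.22 and 7.80 CPM in G1, 15.1 and 12.4 in S and 34.7 and 30.2 in G2M, and its S difference of 0.89 ± 0.31 did not pass (adjusted p = 0.0912). It passed in the blocked fit (0.87, adjusted p = 0.0354).

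Of the 14 H2A genes tested, 5 were higher in S. *Hist1h2ap* rose from 22.8 and 13.8 CPM in G1 to 734 and 330 in S and 1183 and 539 in G2M (4.88 ± 0.72, adjusted p = 0.00104). *Hist1h2ae* rose from 36.6 and 12.4 to 545 and 306 and then 898 and 581 CPM (4.17 ± 0.53, adjusted p = 0.000351). In both genes the S values were above the G1 values in each library, and replicate 1 was the higher of the 2 in every phase of these genes. *Hist1h2ab* (2.97), *Hist1h2af* (2.83) and *Hist2h2ac* (2.37) rose from levels under 4 CPM. *Hist1h2af* had no UMI in G1 RGC-like cells of either library, and 3.11 and 3.25 CPM in S. Against a floor of 3 counts over the group, it was at least 4.52-fold higher in S.

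Of the 16 H2B genes tested, 3 were higher and 1 was lower in S. *Hist1h2bj* (2.65), *Hist1h2bm* (2.43) and *Hist1h2bh* (2.0) rose from under 2 CPM in G1 to at most 10.6 CPM in S. *Hist1h2bc* was the one gene of the 53 called lower without the block. It went from 82.2 and 69.9 CPM in G1 to 24.4 and 28.0 in S, and had 45.9 and 53 in G2M (S over G1 -1.46 ± 0.22, adjusted p = 0.00106). The G1 values did not overlap those of S or G2M. The summed level of the H2B genes was 236 and 233 CPM in G1, 170 and 180 in S and 330 and 288 in G2M, whereas H2A went from 120 and 82.3 to 1390 and 728 CPM in S. Most H2B UMIs of G1 cells were those of *Hist3h2ba* and *Hist1h2bc*.

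Of the 10 H3 genes tested, 4 were higher in S, and of the 8 H4 genes, 2. *Hist1h3b* had no UMI in G1 RGC-like cells, 7.27 and 4.59 CPM in S and 27.9 and 14.1 in G2M. Against the same floor of 3 counts it was at least 8.43-fold higher in S and at least 29.9-fold in G2M. *Hist1h3c* rose from 6.22 and 5.32 to 40.0 and 24.6 CPM (2.43 ± 0.55, adjusted p = 0.0148), and *Hist1h3f* (2.62) and *Hist1h3a* (2.44) from under 3 CPM. Of the H4 genes, *Hist1h4c* (2.45) and *Hist1h4d* (2.31 ± 0.66, adjusted p = 0.0433) rose, the latter from 12.4 and 4.96 to 56.6 and 28.7 CPM. The summed levels in S were 118 and 75.0 CPM for H3 and 121 and 131 for H4, beside 428 and 330 for H1.

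*Hist1h4i*, an H4 gene, stood apart from the others between the libraries. It had 16.6 and 41.1 CPM in G1, 32.2 and 75.7 in S and 62.4 and 122 in G2M, higher in replicate 3 in each phase. Its S difference of 0.91 ± 0.61 did not pass (adjusted p = 0.389), but it did in the blocked fit (0.91, adjusted p = 0.000416), and the S value was above the G1 value within each library. The Hist3 pair was not called higher. *Hist3h2ba*, an H2B gene, had 127 and 144 CPM in G1, 78.6 and 104 in S and 126 and 137 in G2M (S over G1 -0.53 ± 0.20, adjusted p = 0.117, and adjusted p = 0.00654 in the blocked fit). *Hist3h2a*, the H2A gene next to it, had 27.6 and 37.6, then 18.7 and 28.4, then 33.9 and 34.8 CPM (-0.42 ± 0.30, adjusted p = 0.42). By these values the captured counts of *Hist3h2ba*, *Hist3h2a* and *Hist1h2bc* were lower in S than in G1 in each library. Of these, only *Hist1h2bc* passed without the block. Whether all mRNA of these genes follows replication was not tested, and the set is called by its gene clusters here.

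**Figure D3:**
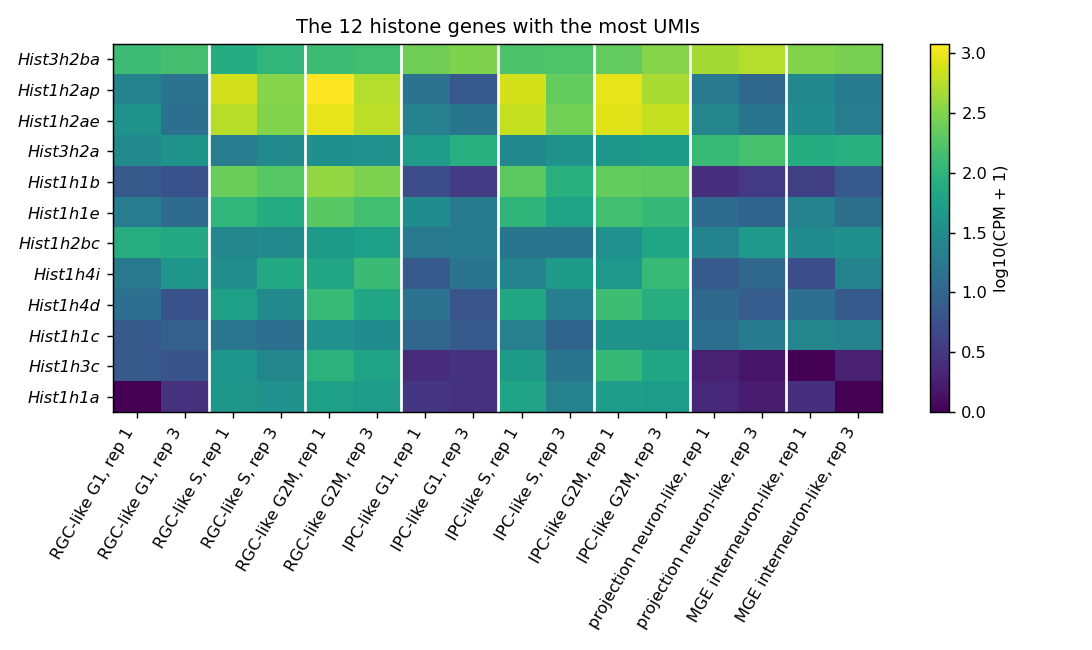
Heat map of log10(CPM + 1) of the 12 genes with the most UMIs (rows) in each phase of RGC-like and IPC-like cells and in projection neuron-like and MGE interneuron-like cells, with 1 column per library. In RGC-like cells *Hist1h2ap* goes from 22.8 and 13.8 CPM in G1 to 734 and 330 in S, whereas the *Hist3h2ba* row is brightest in projection neuron-like cells, at 451 and 535.

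More genes were called in G2M than in S. Between G2M and G1 RGC-like cells, 36 of the 53 were higher (7.86% of all genes) and none was lower (5.39% of all genes). DESeq2 called 0 lower. For DESeq2 and for unadjusted p, here and below, the share over all genes was not computed. No result is read from those counts. At an unadjusted p under 0.05, 1 was lower, and it was *Hist1h2bc*, which the blocked fit called lower (-0.58, adjusted p = 0.0208, beside 11.1% of all genes). The median log2 difference was 2.44, or 2.33 with genes without G1 UMIs at their bound, beside -0.04 over all genes. By family, 5 of 5 H1, 10 of 14 H2A, 9 of 16 H2B, 8 of 10 H3 and 4 of 8 H4 genes were higher. *Hist1h1b* (5.84 ± 0.40, adjusted p = 1.69e-06), *Hist1h2ap* (5.56 ± 0.73, adjusted p = 0.000361) and *Hist1h2ae* (4.95 ± 0.54, adjusted p = 7.41e-05) led among the abundant ones, while *Hist3h2ba* was at -0.03 ± 0.19 (adjusted p = 0.954).

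Between S and G2M directly, 6 genes were lower in S (2.35% of all genes) and none was higher (2.14% of all genes), with a median of -0.86 beside 0.03 over all genes. At an unadjusted p under 0.05, 26 were lower and 0 higher, and DESeq2 called 0 higher, with no share over all genes beside them. The 6 were *Hist1h3b* (-1.74), *Hist1h2bj* (-1.25), *Hist1h1c* (-1.21), *Hist1h2be* (-1.11), *Hist1h2ab* (-1.06) and *Hist1h2bc* (-0.88). In the blocked fit 28 were lower and 0 higher, beside 5.86% and 7.73% of all genes. *Hist1h2ap* (-0.68, adjusted p = 0.00221), *Hist1h2ae* (-0.81, adjusted p = 0.00188) and *Hist1h1b* (-0.64, adjusted p = 0.00605) were among the 28. *Hist1h3a*, with 13.5 and 9.40 CPM in S and 9.22 and 7.59 in G2M, was the only gene of the 53 with a difference above 0, and it did not pass (0.42 ± 0.26, adjusted p = 0.463). The G2M class by score holds the cells of bin 6, in which the S score is still above 0.

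IPC-like cells were tested in the same fit. Between S and G1, 17 genes were higher (7.2% of all genes) and 1 was lower (2.05% of all genes), with a median of 1.76 beside -0.02. In the blocked fit it was 25 and 2, beside 10.2% and 5.47%. *Hist1h2ap* went from 13.7 and 6.11 CPM to 740 and 221 in S and 913 and 476 in G2M (5.54). *Hist1h1b* went from 4.37 and 2.52 to 196 and 88.0 and then 224 and 211 CPM (5.20 ± 0.39, adjusted p = 7.5e-06). *Hist1h2ae* went from 22.1 and 14.6 to 643 and 265 and then 829 and 635 CPM (4.59). Replicate 1 was the higher library in S for all 3. The gene that fell was *Hist3h2ba*, from 252 and 305 CPM in G1 to 165 and 169 in S (-0.73 ± 0.20, adjusted p = 0.0413), with 215 and 328 in G2M. *Hist1h2bc* did not pass the test, at 16.3 and 16.9 CPM in G1 and 14.6 and 14.8 in S (-0.17 ± 0.31, adjusted p = 0.812), and its highest values were those in G2M, at 34.4 and 65.6.

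No gene of the set passed edgeR's test of the difference in S response between the 2 progenitor classes (0 higher and 0 lower, beside 0.016% and 0.048% of all genes). At an unadjusted p under 0.05 there were 4, and DESeq2 called 1 lower, with no share over all genes beside them. The 4 were *Hist1h2ag*, *Hist1h2bf*, *Hist1h2be* and *Hist1h2bc*, named after their values were seen. *Hist1h2ag* rose by less in the RGC-like class (-2.55 ± 0.62, adjusted p = 0.199, and adjusted p = 0.0183 in the blocked fit, where it was the 1 gene called, beside 0.951% of all genes), from 9.68 and 4.61 to 14.0 and 9.07 CPM in the former and from 0.582 and 0.539 to 14.6 and 7.09 in the latter. For *Hist1h2bc* the interaction was -1.29 ± 0.40 (adjusted p = 0.344). Between the S cells of both classes 1 gene was lower in RGC-like cells (10.5% of all genes), *Hist3h2ba* (-0.86 ± 0.21, adjusted p = 0.0108), and 0 were higher by edgeR or DESeq2 (11.1% of all genes by edgeR), with 3 higher at an unadjusted p under 0.05. The blocked fit added 3 higher genes, *Hist1h1b*, *Hist1h4i* and *Hist1h2bc*, beside 15.3% of all genes.

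The cell types were compared on UMIs summed per class and library, where 56 of the 67 genes passed the filter. Between RGC-like and projection neuron-like cells, 49 were higher in RGC-like cells (30.1% of all genes) and 2 were lower (34.7% of all genes), and the median log2 difference was 2.99 beside -0.06 over all genes. The blocked fit gave 49 and 2 as well, beside 32.7% and 37.5%. All 10 H3 genes tested were higher, with 4 of 5 H1, 13 of 15 H2A, 14 of 16 H2B and 8 of 10 H4 genes. *Hist1h1b* had 270 and 211 CPM in RGC-like and 1.61 and 2.30 in projection neuron-like cells (6.63 ± 0.26, adjusted p = 1.37e-07). *Hist1h2ap* had 838 and 380 beside 16.6 and 9.81 CPM (5.29 ± 0.54, adjusted p = 3.5e-05), and *Hist1h2ae* 634 and 388 beside 24.4 and 14.7 (4.48). *Hist1h3c* was at 5.69 ± 0.44 (adjusted p = 5.65e-06). Each RGC-like value of these genes was above both neuronal ones. Red blood cell-like cells had 6.01 and 7.5 CPM of *Hist1h2ap*, beside the 16.6 and 9.81 CPM of projection neuron-like cells.

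*Hist1h2bc* and *Hist1h1c* did not pass the test between RGC-like and projection neuron-like cells. *Hist1h2bc* had 42.7 and 44.7 CPM in RGC-like cells beside 23.6 and 43.2 in the projection neurons (0.17 ± 0.24, adjusted p = 0.555). *Hist1h1c* had 23.0 and 19.7 beside 11.8 and 17.1 CPM (0.33, adjusted p = 0.163). Replicate 3 was the higher library of both genes in neurons.

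**Figure D4:**
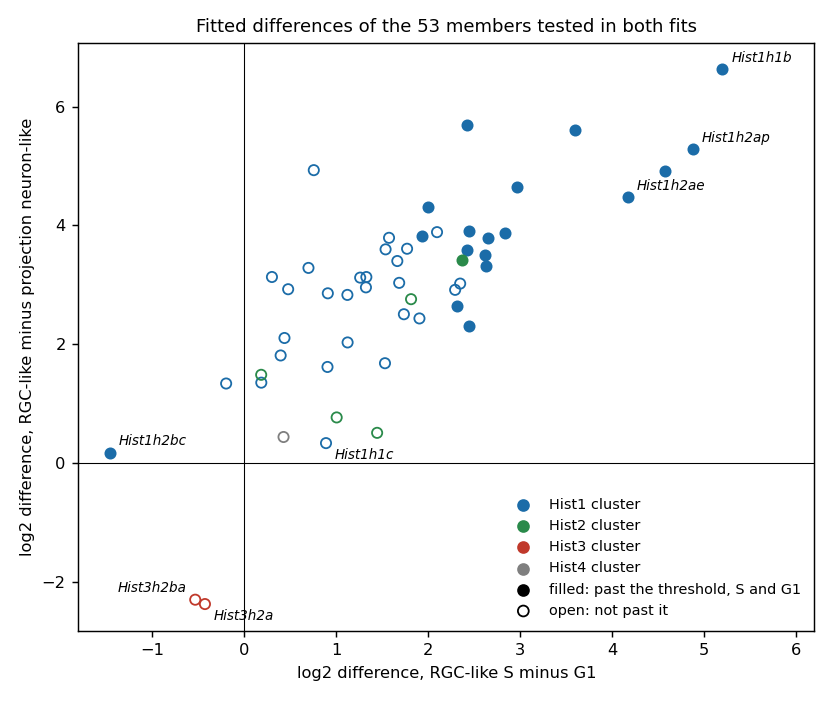
Fitted log2 difference of S over G1 in RGC-like cells (x axis) against that of RGC-like over projection neuron-like cells (y axis) for the 53 genes tested in both fits, coloured by gene cluster, with filled points for genes past the threshold between S and G1 and open points for the others. *Hist1h1b* lies at 5.20 and 6.63, whereas *Hist3h2ba* lies at -0.53 and -2.31 and *Hist3h2a* at -0.42 and -2.38, below 0 on both axes.

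The 2 lower genes were the Hist3 pair. *Hist3h2ba* had 451 and 535 CPM in projection neuron-like cells, beside 108 and 124 in RGC-like and 229 and 283 in IPC-like cells. The RGC-like difference from projection neuron-like cells was -2.31 ± 0.15 (adjusted p = 2.28e-06) and the IPC-like one -1.09 ± 0.15 (adjusted p = 0.000373). *Hist3h2a* had 118 and 149 CPM in projection neuron-like, 27.0 and 32.4 in RGC-like and 42.4 and 67.9 in IPC-like cells (-2.38 ± 0.21, adjusted p = 1.54e-05, and -1.41 ± 0.21, adjusted p = 0.000636). The order in each library was RGC-like, IPC-like, projection neuron-like, and the step from RGC-like to IPC-like cells passed too (-1.22 ± 0.15, adjusted p = 0.000337, for *Hist3h2ba* and -0.97 ± 0.22, adjusted p = 0.00737, for *Hist3h2a*). The MGE interneuron-like class was lower than projection neurons for this pair too, at 305 and 274 CPM (-0.94 ± 0.15, adjusted p = 0.00178) and 79.2 and 86.2 CPM (-0.87 ± 0.23, adjusted p = 0.0182).

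The level of *Hist3h2ba* was 69.1 and 33.7 CPM in red blood cell-like, 22.6 and 33.1 in meningeal-like, 25.7 and 24.7 in pericyte-like and 0 and 41.2 in endothelial-like cells, all below the values of the neuronal classes. Cajal-Retzius-like cells, early neurons of the marginal zone, had 240 and 307 CPM and CGE interneuron-like cells 327 and 161. Every neuronal class was above RGC-like cells in each library.

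Within the projection neuron-like class the level varied between clusters. It was highest in cluster 12 (680 and 715 CPM), cluster 5 (662 and 819), whose leading genes include *Slc17a6*, *Cdh8*, *Unc5d* and *Neurod1*, and cluster 2 (643 and 759), and the values of these 3 overlapped. It was 481 and 541 in cluster 8, 450 and 473 in cluster 0, 347 and 376 in cluster 7, 255 and 317 in cluster 1, led by *Hs3st4* and *Rgs6*, and 231 and 223 in the small and shallow cluster 17. The 3 IPC-like clusters had 329 and 503 (cluster 22), 245 and 261 (cluster 3) and 180 and 274 CPM (cluster 14). The 4 RGC-like ones had 146 and 144 (cluster 13), 121 and 136 (cluster 4), 115 and 125 (cluster 6) and 64.9 and 81.9 (cluster 10). *Hist1h2ap* had its highest level in cluster 6, at 1722 and 820 CPM, where the whole set reached 5201 and 3359, and was at 1052 and 566 in IPC-like cluster 14 and 27.3 and 21.1 in RGC-like cluster 4. Of the RGC-like clusters, *Hist1h2bc* was highest in cluster 13, led by *Cenpa* and *Cdc20*, at 105 and 146 CPM, and lowest in cluster 6, at 16.3 and 14.3. The unnamed cluster 19 had 75.2 and 154 CPM of it. The clusters were made from the same cells, so these values are descriptions.

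**Figure D5:**
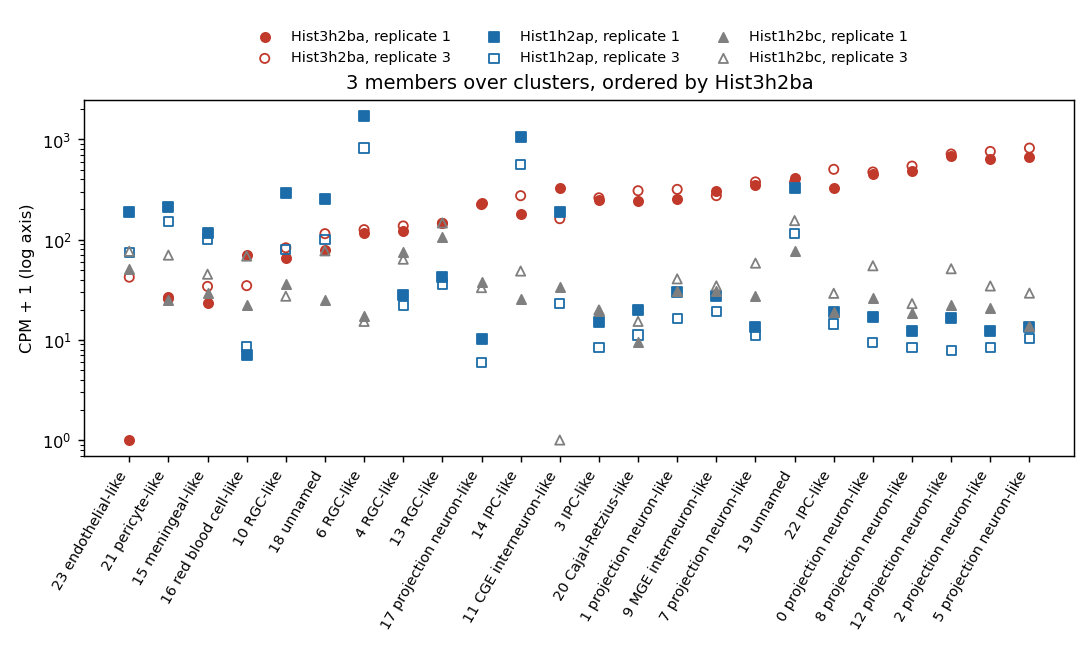
Level of *Hist3h2ba*, *Hist1h2ap* and *Hist1h2bc* as CPM + 1 on a log axis in each cluster, ordered by *Hist3h2ba*, with filled points for replicate 1 and open points for replicate 3. *Hist3h2ba* is at 662 and 819 CPM in projection neuron-like cluster 5 and at 64.9 and 81.9 in RGC-like cluster 10, while *Hist1h2ap* reaches 1722 and 820 in RGC-like cluster 6.

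The make-up of the histone UMIs differed between the classes. The Hist3 pair gave 78.7% and 81.8% of histone UMIs in projection neuron-like cells, 63.2% and 65.0% in MGE interneuron-like, 18.4% and 33.5% in IPC-like and 4.95% and 8.84% in RGC-like cells. In G1 RGC-like cells its share was 33.0% and 43.5%. The Hist1 cluster gave 93.3% and 89.5% in RGC-like and 19.5% and 16.8% in projection neuron-like cells. By family, H2A led in RGC-like cells with 59.7% and 50% and H2B led in projection neuron-like cells with 67.5% and 70.6%.

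Against projection neuron-like cells, IPC-like cells had 40 genes higher (22.4% of all genes) and 2 lower (25.5% of all genes), with a median of 2.07, and *Hist1h1b* at 4.99. The 2 lower ones were again the Hist3 pair, and the blocked fit added *Hist1h2bc* (-0.62, adjusted p = 0.0161), which made 3 lower beside 28.2% of all genes. Between RGC-like and IPC-like cells, 16 of the 56 were higher in RGC-like cells (20.4% of all genes) and 2 were lower (19.8% of all genes), with a median of 0.83. The share that was higher was thus not far from that of all genes. The blocked fit called 30 higher, beside 23.7% of all genes. *Hist1h1b* was among those higher (1.64 ± 0.20, adjusted p = 0.000327), and *Hist1h2ap* passed in the blocked fit alone (1.27, adjusted p = 0.0548, and 1.29, adjusted p = 3.99e-05, when blocked). The IPC-like class had more G1 cells, as given above, and the part of that in these differences was not tested.

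Of MGE interneuron-like against projection neuron-like cells, 0 genes were higher (13.5% of all genes) and 2 lower (22.7% of all genes) by edgeR, with a median of 0.14, or 0.52 with the 10 genes at 0 in one group set at their bound, beside -0.12 over all genes. The blocked fit called 3 higher, *Hist1h3e*, *Hist1h2be* and *Hist1h1e*, beside 14.4% of all genes. At an unadjusted p under 0.05, 3 were higher, and DESeq2 called 3 higher. No share over all genes was computed for these counts, and no result is read from them.

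The histone level of single genes was also compared between the 2 libraries. Of 22 histone genes with enough UMIs in S RGC-like cells, 18 were higher in replicate 1, with a median log2 ratio of replicate 1 over replicate 3 of 0.49 and a range from -1.23 to 1.15. In G2M RGC-like cells it was 28 of 32 genes, with a median of 0.58, and in G2M IPC-like cells 10 of 14, with a median of 0.14. In projection neuron-like cells it was 11 of 21, with a median of 0.05. In RGC-like cells *Hist1h2ap* was the highest, at 1.15 in S and 1.13 in G2M, and *Hist1h4i* the lowest, at -1.23 and -0.97. The share of all genes that were higher in replicate 1 was not computed. These counts are therefore not read as particular to the histone genes. The cause of this library difference was not tested. The wide SDs of the S and G2M sums given above are those of the same 2 libraries.

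The promoters of 4 genes are shown because they belong to genes of opposite course, the Hist3 pair that was high in neurons and *Hist1h2ae* and *Hist1h1b*, which rose in S. The sequences, from 250 bases before to 50 after the start, are from RefSeq, build GRCm38.p6, written 5' to 3' on the strand of the gene. Motifs known from histone promoters were searched on both strands and are in capitals. They were the CCAAT box, the TATA box in the form TATAAA, the octamer of H2B promoters in the form ATTTGCAT, and the H1 box, AAACACA. A match on the other strand stands as its reverse complement. None of these motifs contains another. The gene bodies lie at chr11:58948911-58949372 (*Hist3h2ba*), chr11:58954685-58955192 (*Hist3h2a*), chr13:23570663-23571220 (*Hist1h2ae*) and chr13:21779832-21780625 (*Hist1h1b*), the first 2 on the plus and the others on the minus strand.

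Hist3h2ba: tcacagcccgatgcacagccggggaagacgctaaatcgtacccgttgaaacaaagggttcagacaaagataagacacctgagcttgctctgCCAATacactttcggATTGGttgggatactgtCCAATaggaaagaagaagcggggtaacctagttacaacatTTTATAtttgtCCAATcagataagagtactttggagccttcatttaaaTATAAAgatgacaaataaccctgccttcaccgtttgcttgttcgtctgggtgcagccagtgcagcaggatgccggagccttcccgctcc

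Hist3h2a: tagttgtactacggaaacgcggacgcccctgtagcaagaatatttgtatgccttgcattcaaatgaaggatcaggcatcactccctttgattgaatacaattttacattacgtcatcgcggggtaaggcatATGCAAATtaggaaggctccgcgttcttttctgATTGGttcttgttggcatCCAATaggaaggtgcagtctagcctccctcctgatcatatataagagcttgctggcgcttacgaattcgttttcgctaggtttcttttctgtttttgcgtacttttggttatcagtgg

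Hist1h2ae: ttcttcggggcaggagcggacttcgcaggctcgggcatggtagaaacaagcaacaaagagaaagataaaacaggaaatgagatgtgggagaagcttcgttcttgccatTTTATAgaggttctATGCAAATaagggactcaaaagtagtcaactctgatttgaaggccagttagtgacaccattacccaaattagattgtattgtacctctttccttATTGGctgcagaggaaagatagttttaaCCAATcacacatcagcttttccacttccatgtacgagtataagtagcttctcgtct

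Hist1h1b: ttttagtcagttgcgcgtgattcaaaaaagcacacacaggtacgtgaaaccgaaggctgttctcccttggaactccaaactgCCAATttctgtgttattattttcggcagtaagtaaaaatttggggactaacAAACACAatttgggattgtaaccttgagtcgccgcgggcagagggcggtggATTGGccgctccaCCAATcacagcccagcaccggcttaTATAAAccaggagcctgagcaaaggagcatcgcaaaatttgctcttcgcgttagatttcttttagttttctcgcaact

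The windows are chr11:58948661-58948960, chr11:58954435-58954734, chr13:23571171-23571470 and chr13:21780576-21780875. The *Hist1h2ae* window also covers the start of *Hist1h2bg*, on the other strand. CCAAT was found in all 4, in the genes that rose in S and in the Hist3 pair. Of the 67 genes, 62 had a promoter in RefSeq (*Hist1h2bc* had none there). CCAAT was in 53 of the 62 (85.5%), against 37.9% of all 27025 promoters. It was in every H1, H2A, H2B and H3 promoter searched and in 3 of 12 H4 promoters. TATAAA was in 35 (56.5%, against 14.2%). The H2B octamer was in 13 (21.0%, against 1.75%), in 7 of 18 H2A and 6 of 16 H2B promoters and in no H1, H3 or H4 promoter. The H1 box was in 9 (14.5%, against 7.14%), of which 5 were H1 promoters, out of 6. A match is a description of the letters and does not show that a factor binds there.

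The genes that make, process and carry histones were read beside the set from 3 lists. Of these, *Slbp*, *Casp8ap2*, *Nasp* and *Chaf1b* also belong to the published S list and *Cenpa* to the G2M list. They were left out of the scores, and the counts below include them where they were tested. A rise of such a gene in the phase of its own list is not an independent result. Of the list for histone transcription and mRNA 3' processing, 20 genes were in the files and 19 were tested in the phase fit, and 4 were higher in S than in G1 RGC-like cells (7.49% of all genes tested), with a median log2 difference of 0.22 beside -0.01 over all genes. *Slbp*, which binds the stem-loop, went from 47.7 and 44.3 CPM in G1 to 191 and 188 in S and 107 and 101 in G2M (2.07 ± 0.18, adjusted p = 2.1e-05). *Casp8ap2*, needed for processing of the stem-loop end, was at 1.24 ± 0.20 (adjusted p = 0.00218) and *Eri1*, an exonuclease that trims it, at 0.97 ± 0.15 (adjusted p = 0.00155). By bin, *Slbp* was at 27.1 and 32.6 CPM in bin 1, 97.7 and 84.2 in bin 3, 132 and 152 in bin 4, 260 and 244 in bin 5 and 124 and 117 in bin 6. Its values were thus above those of bin 1 in bins 3 and 4, before the histone step, and below those of bin 5 in bin 6, where the histone sum was highest.

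Of the list for chaperones and deposition, 23 genes were in the files and 22 were tested, and 10 were higher in S, beside the same 7.49% of all genes, with a median of 0.41. *Asf1b*, a chaperone of H3 and H4, went from 0 and 0.709 CPM in G1 to 21.5 and 18.1 in S and 20.4 and 27.3 in G2M (4.37 ± 0.42, adjusted p = 4.01e-05). *Chaf1b* and *Chaf1a*, subunits of the factor that deposits H3 and H4 behind the replication fork, were at 3.99 ± 0.20 (adjusted p = 1.38e-06) and 3.49 ± 0.31 (adjusted p = 2.19e-05). *Chaf1b*, a gene of the published S list, was at 27.9 and 27.2 CPM in bin 3, 83.2 and 89.1 in bin 4, 97.5 and 111 in bin 5 and 21.1 and 26.8 in bin 6. Its values were close between the libraries.

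The name of the list of replication-independent variants is a label, and the independence of each gene was not tested. Of this list, 12 genes were in the files and 11 were tested, and 2 were higher in S, beside 7.49% of all genes, with a median of 0.19. *H2afx*, which marks DNA breaks when phosphorylated, went from 31.8 and 42.2 CPM in G1 to 124 and 133 in S and 523 and 522 in G2M (S over G1 1.78 ± 0.19, adjusted p = 0.000117, and S over G2M -2.01 ± 0.17, adjusted p = 2.88e-05). *H2afz*, the variant H2A.Z, was at 0.86 ± 0.14 (adjusted p = 0.00252) in S over G1 and -0.61 ± 0.14 (adjusted p = 0.0353) in S over G2M. No gene of the 3 lists was called lower in S than in G1 (4.01% of all genes). Between S and G2M, 2 of the processing list and 4 of the chaperone list were higher in S (2.14% of all genes), and 6 of the variants were lower (2.35% of all genes). Between RGC-like and projection neuron-like cells, 8 of 19 genes of the processing list, 14 of 23 of the chaperone list and 7 of 11 variants were higher in RGC-like cells (30.1% of all genes), and 2, 1 and 3 were lower (34.7% of all genes).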

How the data were processed

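The deposited files held UMI counts per gene and cell barcode for each of the 2 libraries, made by the authors with Cell Ranger 7.0.0 and build mm10 per the labels. The barcodes had been called as cells before deposit. The annotation and the setting on introns and strand are not given in the sources used here.

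The filter on cells asked for 1500 to 60000 UMIs, with a mitochondrial share under 10%. Predicted doublets, at 0.8% per 1000 barcodes, were removed per library against 2 simulated doublets per cell. Counts were scaled to 10000, and 2000 variable genes, 30 components, 15 neighbours and resolution 1 gave the clusters. The histone genes and pathway genes were left out of the variable genes. Clusters were named from 134 marker genes of 15 classes. For phase scores each cell was thinned to 3000 UMIs.

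UMIs were summed per class, phase and library. They were tested with edgeR 4.0.16 in R 4.3.3 (TMM, filterByExpr, prior count 2, glmQLFit and glmQLFTest) on 12509 genes by phase and 15193 by class. Adjusted p is Benjamini-Hochberg over all genes tested, with a threshold of 0.05, and SE is the log2 difference over the square root of F. Genes of the phase lists were left out of the phase fit. DESeq2 1.42.0 was an alternative. The scripts were tested on simulated data. Sums with the same replicate number come from one library and so are paired. Their deviations from the group means correlated at 0.141 to 0.448 over 15 pairs of sums by phase and at 0.0175 to 0.249 over 6 by class. The fit with the replicate number as a block is given where it changed a call or a count by over 1.5 times.

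All 67 genes are accounted for. Described in full are the 12 with the most UMIs and the genes past the threshold in S against G1 of RGC-like cells, and of each pathway list the 3 with the largest change there. The genes and lists were chosen with earlier results of these data known.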

Additional observations from a re-analysis of the deposited data

How the results depend on the processing

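Over 1323 values under the alternatives, 1155 stayed on the same side of the threshold or within the spread, and 1 changed sign, which was *Hist1h2bc* between RGC-like and projection neuron-like cells (-0.12 with a stricter filter on cells). A further 94, for which there was no test, moved beyond the spread between replicates. Another 40 no longer passed, 11 of them with thinning to 1500 UMIs, 10 at Leiden resolution 2, 9 with the stricter filter on cells and 6 with doublets kept, and 33 passed only under the alternative. The counts of histone genes that moved by over 1.5 times were these. The share over all genes was computed only for the fits with and without the block. With no filter on low counts the set of genes tested changed as well. No result is therefore read from the counts under the other alternatives. For S over G1 in RGC-like cells, 18 higher became 32 with no filter on low counts and 31 with the replicate block, and 1 lower became 2 with each. For G2M over G1, 0 lower became 1 with no low-count filter, the block, the stricter filter on cells and thinning to 1500 UMIs. For S over G2M, 6 lower became 22 with no low-count filter, 28 with the block, 10 with the stricter filter on cells and 3 at Leiden resolution 2. For S over G1 in IPC-like cells, 17 higher became 26 with no low-count filter and 27 with the full phase lists, and 1 lower became 2 with no low-count filter, the block, DESeq2, doublets kept, the stricter filter and the full phase lists, and 0 with thinning to 1500 UMIs. For the difference in S response, 0 became 1 higher and 1 lower with no low-count filter and 1 lower with the block and with DESeq2. For S of RGC-like over IPC-like cells, 0 higher became 3 with no low-count filter and with the block, 2 with thinning to 1500 UMIs and 1 with doublets kept, the stricter filter or Leiden resolution 2, and 1 lower became 0 with the full phase lists. For RGC-like over IPC-like cells, 16 higher became 28 with no low-count filter, 30 with the block, 32 with doublets kept and 27 with the stricter filter. For MGE interneuron-like over projection neuron-like cells, 0 higher became 5 with no low-count filter, 3 with the block or DESeq2, 2 with library sizes only and 1 with doublets kept, and 2 lower became 4 with no low-count filter and 1 with the stricter filter. The cause of these moves was not tested. The block lost no call of the fit without it. Leaving out replicate 1 or replicate 3 left 1 sum per group, so no counts of calls could be had. Depth limits the genes with few UMIs, of which 14 of 67 could not be tested by phase and 11 by class.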
